A study of Homo sapiens with 36 samples.

Results

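The genes described are 44 components and E2F-regulated genes of the DNA replication machinery, taken by name from their roles at the replication fork and not by their measured levels. They were 44 of the 42166 Ensembl genes with a count in at least 1 library, and all of them were detected. They comprise 10 origin licensing genes (ORC1, ORC6, CDC6, CDT1 and MCM2 to MCM7), 6 helicase activation genes (CDC45, GINS1 to GINS4 and MCM10), 5 genes of the sliding clamp and its loader (PCNA and RFC2 to RFC5), 7 polymerase and primase genes (POLA1, POLA2, POLD1, POLD3, POLE, POLE2 and PRIM1), and 4 genes of strand protection and joining (RPA2, RPA3, FEN1 and LIG1). The others are 4 nucleotide supply genes (RRM1, RRM2, TYMS and TK1), 3 E2F factors (E2F1, E2F2 and E2F8), 4 genes of chromatin assembly and maintenance methylation (CHAF1A, CHAF1B, UHRF1 and DNMT1), and CLSPN, an adaptor of the fork checkpoint.

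The series holds 36 RNA-seq libraries in 18 groups of 2, from a pair of human breast cell lines in which YAP, TAZ, TEAD, STAT3 or JUNB was depleted with siRNA pools. ER-Src cells come from the untransformed breast line MCF-10A and express a v-Src protein joined to the ligand-binding part of the estrogen receptor, which tamoxifen (TAM) activates, ethanol (ETH) being its solvent control. MDA-MB-231 is a triple-negative breast cancer line. The question for these genes is how far their RNA depends on each factor, under TAM and under ETH, and in the cancer line.

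The ER-Src groups were control siRNA (Ctrli), YAPi, TAZi, STAT3i and JUNBi, each under TAM and under ETH, and all of them grew with EGF, insulin, hydrocortisone and cholera toxin. The treatment label, shared by all libraries, names the Src-family kinase inhibitor AZD0530 beside tamoxifen without saying which libraries received it. In MDA-MB-231, a first set held YAPi, TAZi, YAPi_TAZi (both depleted) and TEADi, and a second set held Ctrli, STAT3i and JUNBi, all without TAM or ETH. In the first set, the Ctrli libraries had 13456784 and 13534560 counts and 0.00407% and 0.00278% of them in 7 RNAs without a poly(A) tail, whereas the knockdowns had 1411304 to 2784605 counts and 8.71% to 11.8% in the same RNAs, so that those controls were not compared and the knockdowns were compared with each other. ER-Src libraries held 6419720 to 19161700 counts and the second MDA-MB-231 set 7290499 to 18076158. Target levels were lower in the depleted cells: YAP1 lay at 26.84 to 38.47 TPM (a transcript level scaled to library size and gene length) in ER-Src Ctrli and at 4.31 to 5.74 in YAPi, and WWTR1, which encodes TAZ, at 6.15 to 6.61 and 1.28 to 2.77. The decrease was not called for JUNB under ETH, at 11.94 and 12.99 TPM in Ctrli and 3.9 and 8.55 in JUNBi (log2 difference -1.16 ± 0.39 SE, DESeq2 adjusted p = 0.0637), nor for STAT3 in the second MDA-MB-231 set, at 15.44 and 20.82 TPM in Ctrli and 3.07 and 2.75 in STAT3i (-2.41 ± 0.32, with no adjusted p from DESeq2), and in TEADi it was called for TEAD1 only, with TEAD2 to TEAD4 not called. ER-Src libraries of STAT3i and JUNBi also differed from the rest in gene length minus effective length (49 bases against 49.47 to 49.49). For these 2 knockdowns the depletion and that difference cannot be told apart when they are set against Ctrli.

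DNA replication is prepared in G1, when ORC, CDC6 and CDT1 load the helicase of MCM2 to MCM7 onto origins. It begins in S phase, when CDC45 and the GINS complex activate the helicase and PCNA holds the polymerases on DNA. Many genes of this machinery are switched on together at the G1/S transition by E2F factors, which bind a GC-rich element near the start site once RB is phosphorylated. YAP and TAZ are Hippo pathway coactivators that reach DNA mainly through TEAD proteins, while STAT3 and JUNB (an AP-1 subunit) bind DNA themselves.

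RefSeq promoters (GRCh38.p14, 250 bases before to 50 after the start site) were matched for 37 of the 44 genes, giving 47 promoters. The E2F element was searched as TTTCCCGC, TTTCGCGC, TTTGCCGC or TTTGGCGC and, on the other strand, as GCGGGAAA, GCGCGAAA, GCGGCAAA or GCGCCAAA. It was present in 23 of the 47 promoters (48.9%), against 1164 of all 35116 promoters of the same length (3.31%). The CCAAT box, read as CCAAT or ATTGG, stood in 28 of 47 (59.6%) and in 34.6% of all promoters, and both elements stood together in 13 (27.7%) and in 1.22%. MCM6, MCM2, MCM3, MCM7 and E2F1 each had at least 2 E2F matches in 1 promoter. The 4 promoters shown here are those of 2 helicase subunits and of E2F1, with repeated matches, and of TK1, which was called lower in YAPi and JUNBi under both treatments and had no match in this window. Each is printed 5′ to 3′ on the gene's strand, with E2F matches in capitals; in MCM6 each capital run holds 2 overlapping matches, one on each strand.
MCM6, chr2:135876394-135876693, minus strand: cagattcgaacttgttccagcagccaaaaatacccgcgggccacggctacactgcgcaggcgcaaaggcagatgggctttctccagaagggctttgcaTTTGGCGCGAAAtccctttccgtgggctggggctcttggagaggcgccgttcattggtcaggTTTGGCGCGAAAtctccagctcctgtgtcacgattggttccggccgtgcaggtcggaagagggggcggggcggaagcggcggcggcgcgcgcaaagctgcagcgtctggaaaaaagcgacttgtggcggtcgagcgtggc
MCM7, chr7:100101348-100101647, minus strand: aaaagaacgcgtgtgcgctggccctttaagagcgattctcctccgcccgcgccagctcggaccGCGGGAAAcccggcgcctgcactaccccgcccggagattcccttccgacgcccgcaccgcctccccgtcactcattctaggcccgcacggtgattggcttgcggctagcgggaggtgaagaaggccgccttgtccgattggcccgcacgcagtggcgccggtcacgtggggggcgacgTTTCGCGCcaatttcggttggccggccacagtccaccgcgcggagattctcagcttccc
E2F1, chr20:33686336-33686635, minus strand: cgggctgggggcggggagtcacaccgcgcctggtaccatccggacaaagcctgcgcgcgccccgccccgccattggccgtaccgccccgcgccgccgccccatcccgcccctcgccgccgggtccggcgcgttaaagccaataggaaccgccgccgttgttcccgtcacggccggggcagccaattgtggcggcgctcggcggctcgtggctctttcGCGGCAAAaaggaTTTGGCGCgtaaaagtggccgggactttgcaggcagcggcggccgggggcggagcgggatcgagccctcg
TK1, chr17:78187155-78187454, minus strand: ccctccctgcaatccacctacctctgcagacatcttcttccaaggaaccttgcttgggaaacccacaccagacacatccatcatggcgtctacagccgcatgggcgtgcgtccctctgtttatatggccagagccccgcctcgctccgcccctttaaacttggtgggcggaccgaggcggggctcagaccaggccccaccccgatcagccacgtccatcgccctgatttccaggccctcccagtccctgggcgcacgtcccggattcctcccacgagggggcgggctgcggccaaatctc

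By their first base, the 30 E2F matches lay between 187 bases before and 7 bases after the start site, with a median of 34 bases before it, and 23 of them fell within 100 bases of the start. A match is a run of letters and no measurement of binding, and its absence says only that these letters are not in this window. In no comparison described here was the median change of the 22 genes with a match more than 0.20 log2 units from that of the 15 genes without one. For example, the medians were -0.48 with and -0.62 without a match for YAPi under ETH, -0.81 and -0.77 for JUNBi under ETH, and -1.59 and -1.50 for YAPi_TAZi against TAZi in MDA-MB-231.

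**Figure D1:**
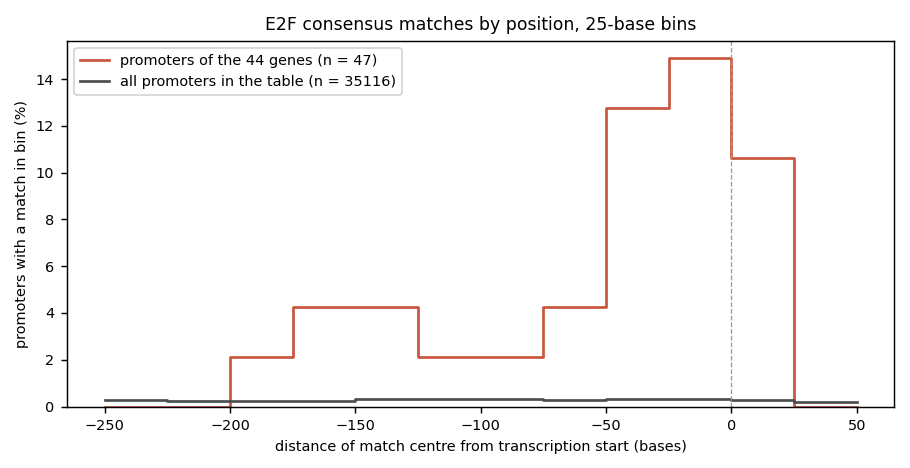
Share of promoters (y axis, %) with the centre of an E2F element match in each 25-base bin of distance from the RefSeq start site (x axis, bases), for 47 promoters of the 44 genes and for all 35116 promoters. Matches of the replication genes gather near the start site, with 23 of the 30 within 100 bases of it on either side.

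Before any comparison, the genes spanned a wide range of levels. In ER-Src Ctrli under ETH the group means ran from 0.82 TPM for E2F2 to 85.5 TPM for MCM4 around a median of 13.4 TPM, and under TAM from 0.395 TPM for E2F2 to 47.8 TPM for RRM2 around a median of 9.79 TPM. In MDA-MB-231 Ctrli of the second set the range was 1.66 TPM for E2F8 to 300.2 TPM for TK1, with a median of 28.7 TPM. Libraries of the second set held 0.00363% to 0.0112% of their counts in the 7 RNAs without a poly(A) tail, against 9.43% to 11.7% in ER-Src. TPM levels are therefore not compared between the lines. Values given from here on for single genes are counts normalized within one comparison, in the order of libraries 1 and 2, and changes are log2 differences ± SE from DESeq2, called at an adjusted p under 0.01 over all genes tested. The labels do not say that libraries of a group came from separate cultures, so p-values measure the spread between these libraries. In bulk RNA, fewer cycling cells and less replication RNA per cell cannot be told apart.

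Depletion of YAP lowered replication genes in ER-Src cells under both conditions, with TYMS, TK1, CDC45, POLD1, LIG1 and MCM7 among the genes called in both and no E2F factor called in either. Under TAM, 11 of the 44 genes were called lower and none higher, against 5.26% of all genes called lower and 5.14% higher (DESeq2). The median of the 44 log2 differences was -0.35, with 40 of them below 0, while the median of all genes tested stayed within 0.03 of 0. Under ETH, 19 were called lower and none higher, against 6.47% and 5.11% of all genes. The median was -0.51, with 43 below 0, and 10 genes were called under both conditions. The TAM and ETH comparisons use different libraries throughout.

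TYMS (chr18:657653-673578), which makes thymidylate, had the lowest estimate in both YAPi comparisons. Under ETH it was at 828.9 and 835.4 in Ctrli and at 374.7 and 231.8 in YAPi, a log2 difference of -1.44 ± 0.22 (DESeq2 adjusted p = 1.2e-09). Under TAM its counts were 479.1 and 571.2 in Ctrli and 256.9 and 191.4 in YAPi (-1.23 ± 0.22, DESeq2 adjusted p = 1.2e-06). Both YAPi libraries lay below both controls under each condition. TK1 (chr17:78174091-78187233), the thymidine salvage kinase, behaved alike in that its groups were also fully separated. It was at 775.9 and 779.4 in Ctrli and 357.8 and 311.1 in YAPi under TAM (-1.22 ± 0.17, DESeq2 adjusted p = 2.1e-10), and at 1024.8 and 986.8 against 547.7 and 490.4 under ETH (-0.95 ± 0.16, DESeq2 adjusted p = 6.6e-08). RRM1 and RRM2, the large and small subunits of ribonucleotide reductase, were called under TAM (-0.49 and -0.47), so that all 4 nucleotide supply genes fell there. Under ETH, RRM1 was called (-0.56) and RRM2 was not (-0.45, DESeq2 adjusted p = 0.031).

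Among the licensing genes, 4 of 10 were called under TAM and 6 of 10 under ETH, all of them MCM helicase subunits. MCM7 (chr7:100092233-100101940) was at 2424.1 and 2635.9 in Ctrli and 1622.6 and 1354.4 in YAPi under TAM (-0.77 ± 0.13, DESeq2 adjusted p = 4.8e-07), and its log2 difference under ETH was -0.89. MCM2 (chr3:127598410-127622436) was at 2409.5 and 2352.5 in Ctrli and 1496.2 and 1280.6 in YAPi under ETH (-0.78 ± 0.13, DESeq2 adjusted p = 7.7e-08). Under TAM the MCM2 counts were 1453.2 and 1404.0 against 1050.4 and 983.7 (-0.49 ± 0.13, DESeq2 adjusted p = 0.00285). None of the loaders of the helicase was called. CDC6 was at 0.17 ± 0.18 under TAM (DESeq2 adjusted p = 0.653) and -0.23 under ETH (DESeq2 adjusted p = 0.386), whereas ORC1 was at -0.68 and -0.65 (DESeq2 adjusted p = 0.0171 and 0.013) and CDT1 at -0.73 and -0.41 (DESeq2 adjusted p = 0.0165 and 0.231). MCM6 was at 1734.8 and 1513.4 in Ctrli and 947.9 and 687.0 in YAPi under ETH, a difference of -0.98 ± 0.17 (DESeq2 adjusted p = 1.6e-07).

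Further along the fork, CDC45, which activates the helicase, was at 653.2 and 638.1 in Ctrli and 360.4 and 285.2 in YAPi under ETH (-0.99 ± 0.19, DESeq2 adjusted p = 7.3e-06), and was also called under TAM (-0.79). POLD1, the catalytic subunit of polymerase delta, was at 860.7 and 1077.1 against 527.0 and 495.2 under TAM (-0.92 ± 0.17, DESeq2 adjusted p = 2.1e-06) and was called at -0.74 under ETH. LIG1, the ligase that seals Okazaki fragments, fell from 621.1 and 674.5 to 395.0 and 350.6 under TAM (-0.80 ± 0.18, DESeq2 adjusted p = 0.00017). None of the 5 clamp and clamp loader genes was called under TAM, and 3 of 5 were under ETH. PCNA, the clamp, was among them, at 2404.1 and 2267.7 in Ctrli and 1717.7 and 1626.5 in YAPi (-0.48 ± 0.12, DESeq2 adjusted p = 0.00086), whereas under TAM its difference was -0.23 (DESeq2 adjusted p = 0.277). UHRF1 and DNMT1, which copy DNA methylation onto the new strand, were called under ETH (-0.48 and -0.45) and not under TAM. E2F1 was at -0.11 and -0.17 under TAM and ETH and was not called (DESeq2 adjusted p = 0.877 and 0.752). E2F2 and E2F8 were at low levels, with means of 0.395 and 1.27 TPM in Ctrli under TAM, which limits calls. Normalized over all ER-Src libraries, E2F8 was at 106.6 and 98.2 in Ctrli and 63.8 and 55.0 in YAPi under TAM. E2F2 had the highest estimate of the members there (0.26).

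Whether YAP depletion acted differently under TAM and ETH was tested by an interaction term, and 0 of the 44 genes were called by DESeq2, with 1 at an unadjusted p under 0.05, and 0 by edgeR, with 3 at an unadjusted p under 0.05. The background of interaction calls was 0.179% of genes higher and 0.319% lower. The counts of calls depended on single libraries. Under TAM, 4, 1, 6 and 2 genes were called without Ctrli 1, Ctrli 2, YAPi 1 and YAPi 2, with medians between -0.43 and -0.30, and under ETH 4, 6, 16 and 9, with medians between -0.65 and -0.40.

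**Figure D2:**
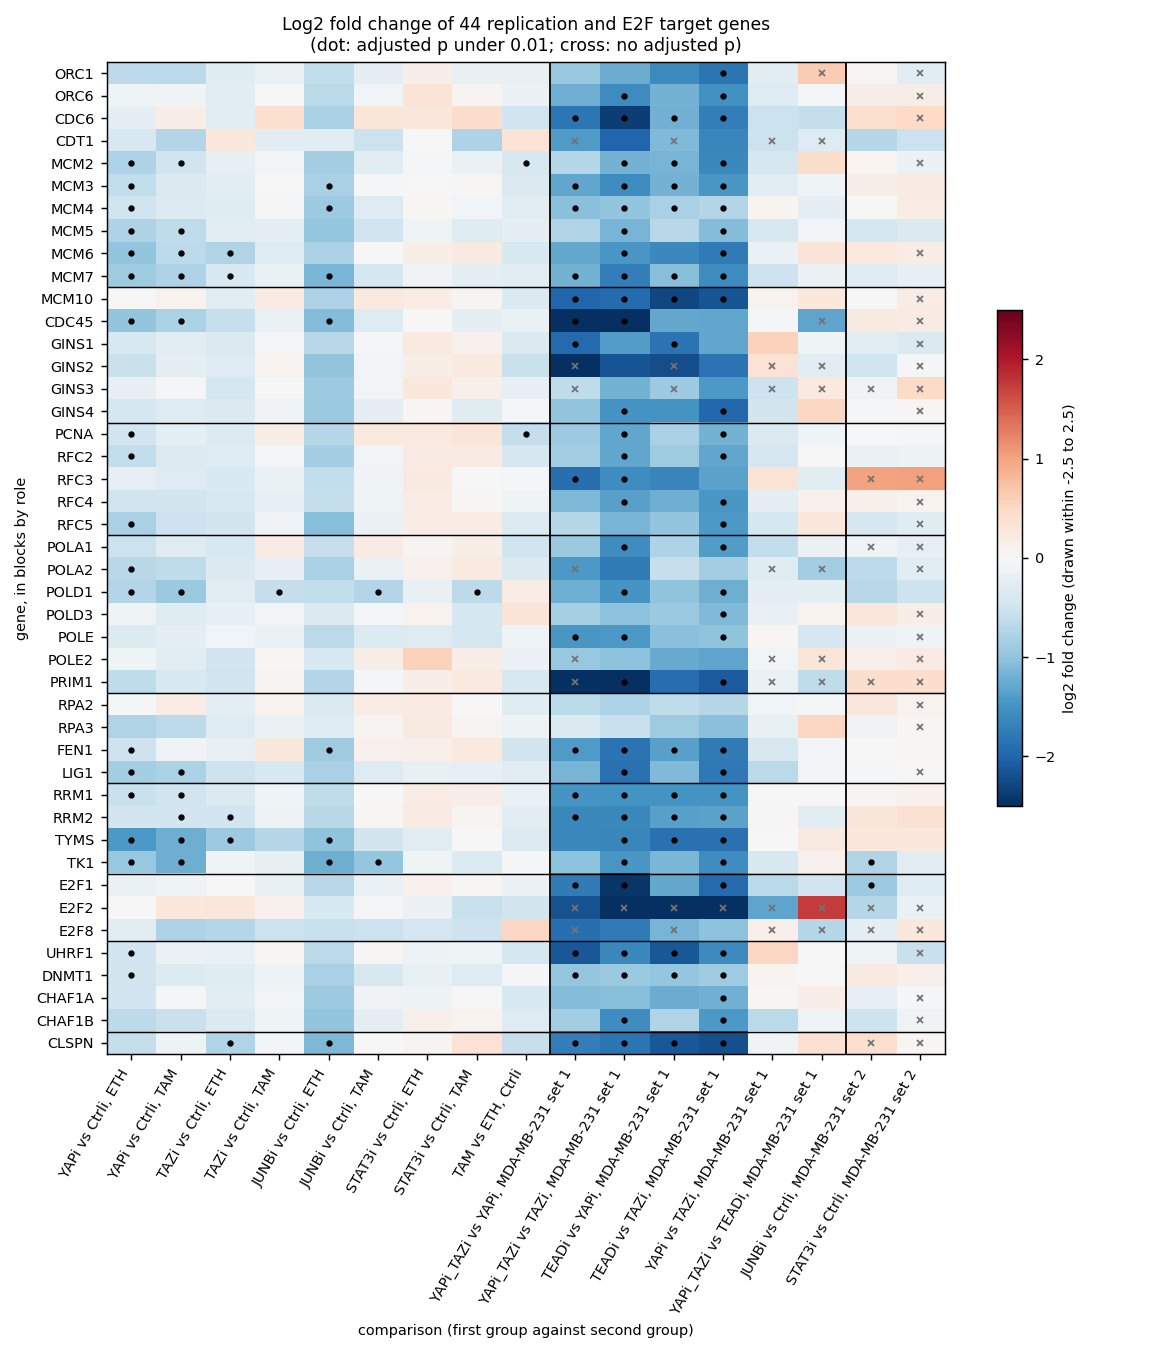
Log2 differences (colour, clipped at 2.5 in either direction) of the 44 genes (rows, by role) in each comparison shown (columns), with dots for a DESeq2 adjusted p under 0.01 and crosses where no adjusted p was given. The columns of YAPi_TAZi and TEADi against YAPi or TAZi in MDA-MB-231 are blue in all 44 rows, whereas the STAT3i columns are pale.

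Depletion of TAZ gave calls mainly in the ETH libraries, with TYMS, CLSPN, MCM6, RRM2 and MCM7 lower. Under ETH, 5 of the 44 genes were called lower against 2.48% of all genes, with a median of -0.33 and 42 estimates below 0 (DESeq2). TYMS was again lowest, at 657.3 and 664.2 in Ctrli and 351.2 and 349.7 in TAZi (-0.91 ± 0.17, DESeq2 adjusted p = 8.8e-06). CLSPN was at 546.0 and 474.6 against 330.0 and 271.2 (-0.76, DESeq2 adjusted p = 0.00357), MCM6 at 1375.7 and 1203.3 against 871.9 and 661.3 (-0.75, DESeq2 adjusted p = 0.00017), and RRM2 at 3145.4 and 2678.1 against 2199.9 and 1967.4 (-0.48, DESeq2 adjusted p = 0.00276). MCM7 was the fifth (-0.39, DESeq2 adjusted p = 0.00777). In each of these first 4 genes both TAZi libraries lay below both controls. Under TAM, only POLD1 was called, at 828.7 and 1035.5 in Ctrli and 605.1 and 619.9 in TAZi (-0.60 ± 0.16, DESeq2 adjusted p = 0.00545), against 1.33% of all genes called lower, with a median of -0.08 over the 44. The TAZi by TAM interaction called 0 members by DESeq2, of the 20 that received an adjusted p, and 0 by edgeR, with 7 and 12 of the 44 at an unadjusted p under 0.05 and a median interaction of 0.25, against 0.339% of genes called higher and 1.27% lower. The 5 calls under ETH became 0 without either Ctrli library, 2 without TAZi 1 and 1 without TAZi 2, and POLD1 under TAM was not called when any of the 4 libraries was left out.

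YAPi and TAZi libraries were also compared directly. Under TAM, 3 members were lower in YAPi than in TAZi and none higher, against 2.69% of all genes called lower, with a median of -0.33. TK1 was at 938.6 and 821.2 in TAZi and 466.7 and 406.5 in YAPi (-1.01 ± 0.17, DESeq2 adjusted p = 1.2e-07), MCM7 differed by -0.60 (DESeq2 adjusted p = 2.5e-05) and MCM2 by -0.43 (DESeq2 adjusted p = 0.00525). Under ETH, TK1 (843.6 and 859.0 in TAZi, 500.9 and 447.1 in YAPi, -0.84 ± 0.17, DESeq2 adjusted p = 7.9e-05) and MCM2 (1876.1 and 1882.6 in TAZi, 1368.2 and 1167.6 in YAPi, -0.57 ± 0.14, DESeq2 adjusted p = 0.00282) were lower in YAPi, against 2.13% of all genes called lower. Under TAM, 0, 1, 2 and 1 members were called without TAZi 1, TAZi 2, YAPi 1 and YAPi 2, and under ETH none was called when any library was left out, although the medians stayed below 0 throughout, at -0.40 to -0.26 under TAM and -0.31 to -0.07 under ETH.

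STAT3 depletion called POLD1 alone among the 44 genes under TAM, at 885.5 and 1108.0 in Ctrli and 552.2 and 706.9 in STAT3i (-0.66 ± 0.18, DESeq2 adjusted p = 0.0042). This call is 2.27% of the 44 genes, below the 4.88% of all genes called lower. The median of the 44 was 0.03 and 19 estimates lay below 0. POLD1 was no longer called without Ctrli 1, Ctrli 2 or STAT3i 1. It was also called lower in YAPi, TAZi and JUNBi under TAM, against the same Ctrli libraries. JUNB, a target in its own right, was lower in these STAT3i libraries too, at 54.35 and 71.05 TPM in Ctrli and 14.44 and 14.88 TPM in STAT3i. Under ETH 0 members were called in either direction by DESeq2 and 0 by edgeR, with 0 and 1 at an unadjusted p under 0.05, against 0.144% of all genes called lower, and the median was 0.10. The STAT3i by TAM interaction called 0 members by DESeq2 and 0 by edgeR, with 0 and 1 at an unadjusted p under 0.05, against 0.45% of genes called higher and 0.976% lower.

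In JUNBi libraries TK1, MCM7 and other fork genes were called lower under ETH, and under TAM only TK1 and POLD1 were called. JUNB itself was not called lower under ETH. The depletion also cannot be told apart from the difference in gene length minus effective length between JUNBi and Ctrli. Of the 44 genes, 8 were called lower under ETH against 1.61% of all genes, all 44 estimates lay below 0 with a median of -0.79, and 34 had an unadjusted p under 0.05 (DESeq2). TK1 was at 967.2 and 933.4 in Ctrli and 319.7 and 490.3 in JUNBi (-1.23 ± 0.29, DESeq2 adjusted p = 0.00101), and MCM7 at 3743.4 and 3551.4 against 1488.0 and 1796.0 (-1.15 ± 0.23, DESeq2 adjusted p = 4.6e-05). Both JUNBi libraries lay below both controls for each gene. CLSPN was at 649.8 and 564.6 against 315.3 and 241.8 (-1.12, DESeq2 adjusted p = 0.00445) and CDC45 at 616.5 and 603.5 against 290.5 and 286.8 (-1.08, DESeq2 adjusted p = 0.00334). TYMS (-1.0), MCM4 (-0.91), FEN1 (-0.88) and MCM3 (-0.81) were the other called genes, FEN1 being the nuclease that trims Okazaki flaps. MCM2 (-0.86, DESeq2 adjusted p = 0.0144), CDC6 (-0.81, 0.0572), PCNA (-0.72, 0.0351), RRM2 (-0.70, 0.0802), UHRF1 (-0.68, 0.0963) and E2F1 (-0.70, 0.384) had estimates of similar size without passing. The 2 JUNBi libraries under ETH differed most from each other among the 18 groups (mean chi-square per gene of 65.4, a measure that grows with depth), and edgeR called 0 of the 44 and 0 of all genes lower. The count was 0 without either Ctrli library, 18 without JUNBi 1 and 19 without JUNBi 2, and 33 in one fit over all groups, while the median without each library stayed between -0.83 and -0.70.

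Under TAM, JUNBi lowered TK1, at 776.4 and 782.7 in Ctrli and 355.3 and 442.7 in JUNBi (-0.97 ± 0.18, DESeq2 adjusted p = 6.5e-06), and POLD1, at 861.3 and 1081.6 against 504.0 and 654.2 (-0.74 ± 0.19, DESeq2 adjusted p = 0.0015). These calls are 4.55% of the 44 genes, near the 4.06% of all genes called lower, and the median of the 44 was -0.08. Neither gene was called without Ctrli 1, Ctrli 2 or JUNBi 1. The JUNBi by TAM interaction was above 0 for 41 of the 44 genes with a median of 0.60, but called 0 by DESeq2 and 0 by edgeR, with 22 and 24 at an unadjusted p under 0.05, against 0.069% of genes called higher and 0.219% lower. PCNA came closest, at 0.94 ± 0.23 (DESeq2 adjusted p = 0.0115). Its counts in this fit were 2092.4 and 1978.1 in Ctrli and 1310.2 and 1180.9 in JUNBi under ETH, and 1372.1 and 1300.6 in Ctrli and 1628.5 and 1520.0 in JUNBi under TAM. PCNA was thus lower in JUNBi than in Ctrli under ETH and higher under TAM, with no overlap of libraries in either. With JUNBi 1 or JUNBi 2 under ETH left out, 9 and 7 genes were called in the interaction.

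STAT3i and JUNBi shared the same gene length minus effective length (49 bases) and were compared directly. Under ETH all 44 genes were higher in STAT3i, with a median of 0.90, 36 at an unadjusted p under 0.05 and 3 called, against 0.811% of all genes called higher (DESeq2). RFC5, a clamp loader subunit, was at 265.8 and 228.7 in JUNBi and 626.1 and 571.2 in STAT3i (1.28 ± 0.32, DESeq2 adjusted p = 0.00445). MCM7 was at 1587.9 and 1910.2 against 3366.3 and 4001.6 (1.07 ± 0.27, DESeq2 adjusted p = 0.00533), and PCNA at 1504.0 and 1352.1 against 2901.2 and 2757.4 (0.99 ± 0.26, DESeq2 adjusted p = 0.00969). Under TAM the median was 0.13 and 0 members were called by DESeq2 and 0 by edgeR, with 5 and 6 at an unadjusted p under 0.05, against 2.94% of all genes called higher. The 3 calls under ETH became 0 without STAT3i 1 or STAT3i 2, 4 without JUNBi 1 and 2 without JUNBi 2, and edgeR called 0 of the 44 and 0 of all genes, whereas TMM scaling gave 6 calls and one fit over all groups, which shares their spread, gave 34.

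In control cells, PCNA and MCM2 were lower under TAM than under ETH, and most other members had estimates below 0 without passing. The labels do not say which libraries received AZD0530, so this comparison cannot be taken as Src activation alone. In Ctrli, TAM against ETH gave a median of -0.28 with 40 of 44 estimates below 0 and 16 at an unadjusted p under 0.05, and 2 members were called lower against 1.4% of all genes (DESeq2). PCNA was at 1720.0 and 1627.8 under ETH and 1143.2 and 1076.5 under TAM (-0.59 ± 0.12, DESeq2 adjusted p = 3.8e-05), and MCM2 at 1723.8 and 1688.6 against 1311.5 and 1263.9 (-0.41 ± 0.12, DESeq2 adjusted p = 0.00933). UHRF1 (-0.43, DESeq2 adjusted p = 0.0101) and CDC6 (-0.50, DESeq2 adjusted p = 0.0536) did not pass. Neither call remained when any of the 4 libraries was left out, with medians between -0.35 and -0.24. Set beside the mean of Ctrli under ETH, the library medians of the 44 genes were -0.31 and -0.24 in Ctrli under TAM, -0.40 and -0.63 in YAPi under ETH, -0.61 and -0.78 in YAPi under TAM, -0.79 and -0.80 in JUNBi under ETH and -0.45 and -0.43 in JUNBi under TAM. TAZi lay at -0.30 and -0.38 under ETH and -0.32 and -0.36 under TAM, and STAT3i at 0.05 and 0.12 under ETH and -0.28 and -0.30 under TAM. The lowest medians were thus those of JUNBi under ETH and of YAPi under TAM, and STAT3i under ETH was the only knockdown whose libraries both lay above 0.

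**Figure D3:**
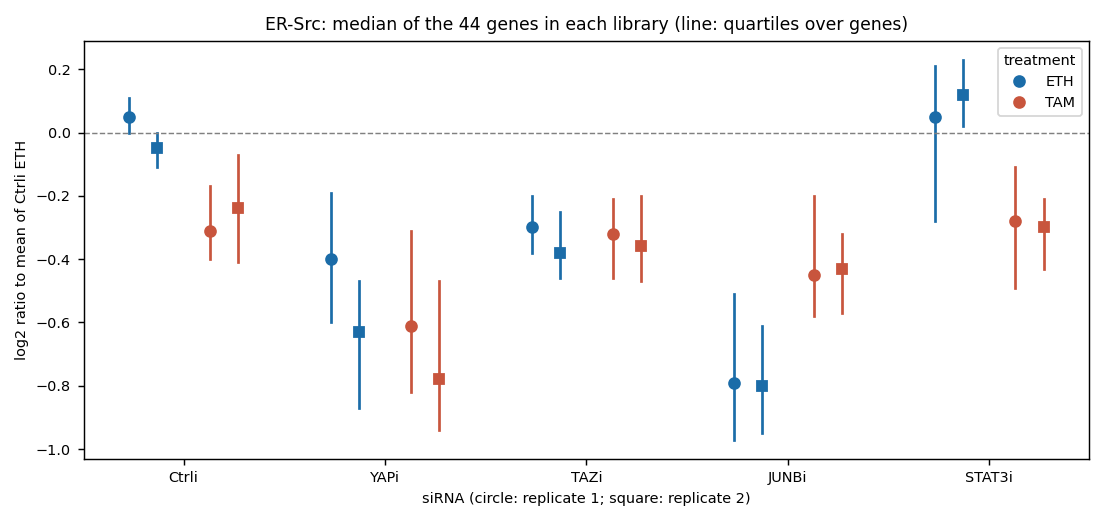
Median log2 difference of the 44 genes from the mean of Ctrli under ETH (y axis) in each of the 20 ER-Src libraries (points), by knockdown and treatment (x axis), with lines from the lower to the upper quartile over genes. JUNBi under ETH lies at -0.79 and -0.80 and JUNBi under TAM at -0.45 and -0.43, while both STAT3i libraries under ETH lie above 0.

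Across the 8 knockdown comparisons with Ctrli in ER-Src cells, which share the 2 Ctrli libraries of their treatment, 23 of the 44 genes were never called, and no member was called higher in any of them, against 0.0289% to 5.14% of all genes. POLD1 was called in 5 of the 8, among them every TAM comparison, and these rest on the same 2 Ctrli libraries. Normalized over all ER-Src libraries, POLD1 was at 1018.1 and 1281.2 in Ctrli under TAM. The second value was the highest of any ER-Src library. The E2F factors E2F1, E2F2 and E2F8 and the loader CDC6 were among the genes never called, although the E2F8 estimate was below 0 in all 8.

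In MDA-MB-231 cells of the first set, replication genes were lower when YAP and TAZ were depleted together, or when TEAD was, than when either coactivator was depleted alone. YAPi_TAZi against TAZi called 30 of the 44 genes lower, against 4.52% of all genes, with a median of -1.53. YAPi_TAZi against YAPi called 16, against 3.42%, with a median of -1.23 and an adjusted p for 36 of the 44. TEADi against TAZi called 32, against 4.51%, with a median of -1.44, and TEADi against YAPi called 14, against 2.34%, with a median of -1.19 (all DESeq2). In each of these 4 comparisons all 44 estimates were below 0 and none was called higher, against 1.41% to 3.89% of all genes. They share libraries pairwise and are not independent of each other. Libraries of the first set with the same replicate number deviated together (r of 0.792 to 0.825 in all 6 pairs of groups), and the values with the number as a block are given where they change a call. Gene length minus effective length was 48 bases in the knockdowns of replicate 1 and 74.56 to 74.57 in those of replicate 2. Every knockdown group held 1 library of each kind. With the block the calls were 26, 20, 27 and 20 in the order above, and with effective length offsets 18, 11, 16 and 14.

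CDC6 (chr17:40287879-40304657), the ATPase that loads the helicase with ORC, was at 252.1 and 223.7 in TAZi and 56.2 and 38.5 in YAPi_TAZi, 5.11-fold lower (-2.35 ± 0.27, DESeq2 adjusted p = 2.4e-16). Against YAPi it was at 164.5 and 157.7 and fell to 55.7 and 37.9 (-1.80, DESeq2 adjusted p = 4.7e-05). In TEADi it fell from 261.4 and 231.6 in TAZi to 73.7 and 74.6 (-1.73, DESeq2 adjusted p = 5.1e-11), and from 171.5 and 164.5 in YAPi to 72.5 and 73.2 (-1.21, DESeq2 adjusted p = 0.00597). Each group with lower CDC6 was fully separated from its comparator. MCM7 fell from 646.7 and 582.2 in TAZi to 192.6 and 181.2 in YAPi_TAZi (-1.72 ± 0.16, DESeq2 adjusted p = 6.3e-23), and from 670.5 and 602.9 to 210.4 and 217.4 in TEADi (-1.57, DESeq2 adjusted p = 1.8e-19). MCM2 was at 320.0 and 300.0 in TAZi and 114.4 and 90.5 in TEADi (-1.61 ± 0.22, DESeq2 adjusted p = 2.2e-11), and at 308.6 and 289.7 against 143.1 and 122.1 in YAPi_TAZi (-1.18, DESeq2 adjusted p = 2.5e-07). Against YAPi, MCM2 was called for TEADi (247.5 and 202.7 against 112.6 and 88.9, -1.17 ± 0.30, DESeq2 adjusted p = 0.00268) and not for YAPi_TAZi (237.4 and 194.4 against 141.8 and 120.3, -0.72, DESeq2 adjusted p = 0.0982, and 0.0193 with the replicate block). Licensing genes made up 4, 8, 5 and 9 calls of 10 in YAPi_TAZi against YAPi and TAZi and in TEADi against YAPi and TAZi.

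Helicase activation genes had the lowest role medians in the comparisons with YAPi among roles of more than 3 genes, at -1.97 for YAPi_TAZi and -1.68 for TEADi. CDC45 was at 49.7 and 61.9 in TAZi and 10.7 and 7.5 in YAPi_TAZi (-2.65 ± 0.55, DESeq2 adjusted p = 4.7e-05), and at 58.9 and 48.6 in YAPi against 10.6 and 7.4 (-2.60 ± 0.68, DESeq2 adjusted p = 0.00314). MCM10, which binds the helicase as it is activated, was at 119.8 and 118.3 in YAPi and 18.1 and 30.5 in TEADi (-2.27 ± 0.45, DESeq2 adjusted p = 3.5e-05), and at 102.0 and 124.0 in TAZi against 18.4 and 31.1 (-2.16 ± 0.36, DESeq2 adjusted p = 1.7e-07). These are genes of low count in the first set, and their SEs are larger than those of MCM7 or FEN1. GINS1 fell from 86.9 and 85.3 in YAPi to 27.8 and 17.6 in YAPi_TAZi (-1.94, DESeq2 adjusted p = 0.00255), and GINS4 from 103.2 and 96.9 in TAZi to 22.4 and 28.4 in TEADi (-1.96, DESeq2 adjusted p = 2.7e-06).

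At the fork, FEN1 was at 388.9 and 376.5 in TAZi and 105.7 and 108.0 in YAPi_TAZi (-1.84 ± 0.19, DESeq2 adjusted p = 1.5e-18). PRIM1, the primase catalytic subunit, had the lowest estimate among the called members of that comparison, at 43.0 and 47.5 against 4.0 and 9.4 (-2.70 ± 0.62, DESeq2 adjusted p = 0.00039), and in TEADi it was at 10.5 and 11.5 against 44.5 and 49.2 in TAZi (-2.08, DESeq2 adjusted p = 0.00188, and 0.0115 with the replicate block). PCNA was lower than in TAZi in both YAPi_TAZi (319.9 and 349.6 against 133.7 and 138.0, -1.30, DESeq2 adjusted p = 1.5e-09) and TEADi (331.7 and 362.0 against 144.7 and 160.6, -1.18, DESeq2 adjusted p = 8.6e-08). Set against YAPi, PCNA was at -0.91 in YAPi_TAZi (222.4 and 282.2 against 132.5 and 136.0) and -0.81 in TEADi and passed only with the replicate block (DESeq2 adjusted p = 0.0127 and 0.0369 without it, 0.00074 and 0.00431 with it). CLSPN, which relays fork stalling to CHK1, was at 100.8 and 155.4 in TAZi and 22.4 and 32.8 in TEADi (-2.20 ± 0.36, DESeq2 adjusted p = 5.9e-08) and at 106.2 and 132.5 in YAPi against 22.0 and 32.2 (-2.12 ± 0.44, DESeq2 adjusted p = 9.7e-05).

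Nucleotide supply genes were called 4 of 4 in both comparisons with TAZi, and 2 and 3 of 4 in those of YAPi_TAZi and TEADi with YAPi. RRM2 was at 371.9 and 421.9 in TAZi and 127.1 and 132.4 in YAPi_TAZi (-1.61, DESeq2 adjusted p = 4.2e-15), and at 355.1 and 432.3 in YAPi against 125.9 and 130.5 (-1.62, DESeq2 adjusted p = 1.6e-09). In TEADi its differences were -1.34 from TAZi (DESeq2 adjusted p = 1.3e-10) and -1.36 from YAPi (DESeq2 adjusted p = 5.1e-07). TYMS was at -1.64 in YAPi_TAZi against TAZi (DESeq2 adjusted p = 0.00107, and 0.0122 with the replicate block) and at -1.86 in TEADi against YAPi (DESeq2 adjusted p = 0.0094). UHRF1, the reader that brings DNMT1 to hemimethylated DNA, was at 198.1 and 185.9 in YAPi and 46.4 and 42.6 in YAPi_TAZi (-2.11 ± 0.34, DESeq2 adjusted p = 6.1e-08). It was at 206.5 and 193.8 in YAPi and 42.7 and 49.7 in TEADi (-2.11 ± 0.34, DESeq2 adjusted p = 6.7e-08), 4.31-fold lower. Against TAZi it was at 140.2 and 134.2 and fell to 46.8 and 43.2 in YAPi_TAZi (-1.61, DESeq2 adjusted p = 2.1e-06), and its difference in TEADi was -1.59 (DESeq2 adjusted p = 2.4e-06). The lower libraries did not overlap with their comparators in any of these UHRF1 values.

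E2F1 (chr20:33675477-33686385), an activator of the G1/S genes and itself an E2F target, was at 202.4 and 117.0 in TAZi and 30.8 and 28.2 in YAPi_TAZi (-2.43 ± 0.35, DESeq2 adjusted p = 3.1e-10), and at 107.5 and 87.8 in YAPi against 30.5 and 27.8 (-1.75, DESeq2 adjusted p = 0.0029). In TEADi it was at 46.0 and 39.9 against 209.8 and 121.1 in TAZi (-1.94, DESeq2 adjusted p = 1.5e-07), and at -1.27 against YAPi (DESeq2 adjusted p = 0.042, and 0.0088 with the replicate block). The 2 TAZi libraries differed from each other in E2F1 more than in CDC6, FEN1 or MCM7, yet both lay above all YAPi_TAZi and TEADi libraries. E2F2 was near the detection limit, at 9.4 and 5.0 normalized counts in TAZi and 0 in both TEADi libraries. E2F2, E2F8, CDT1, GINS2, GINS3, POLA2, POLE2, RPA2 and RPA3 were the 9 genes called in none of the 4 comparisons. CDC6, MCM3, MCM4, MCM7, MCM10, FEN1, RRM1, RRM2, UHRF1, DNMT1 and CLSPN were the 11 called in all 4.

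**Figure D4:**
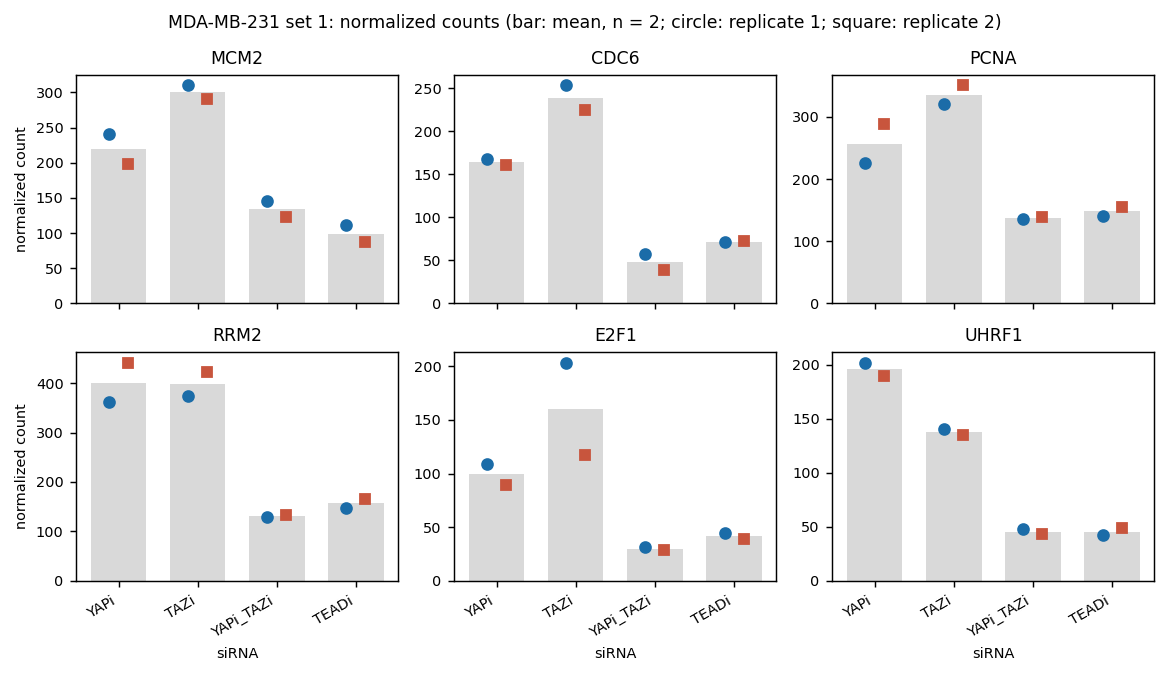
Normalized counts (y axis, from 0) of MCM2, CDC6, PCNA, RRM2, E2F1 and UHRF1 in the MDA-MB-231 knockdowns of the first set, with bars for the mean of 2 libraries and points for each library. In all 6 genes every YAPi_TAZi and TEADi point lies below every YAPi and TAZi point.

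The single depletions differed little from each other, as did YAPi_TAZi and TEADi. In YAPi against TAZi, 0 members were called by DESeq2 and 0 by edgeR, with 7 and 14 at an unadjusted p under 0.05, a median of -0.22 and 0.641% of all genes called lower. MCM7 was at 716.9 and 644.1 in TAZi and 535.3 and 419.4 in YAPi (-0.51 ± 0.18, 95% interval -0.86 to -0.16, DESeq2 adjusted p = 0.0961) and was called with the replicate block (DESeq2 adjusted p = 0.00383). In YAPi_TAZi against TEADi, 0 members were called by DESeq2 and 0 by edgeR, with 0 and 2 at an unadjusted p under 0.05, a median of -0.06 and 2.75% of all genes called lower. The estimates there were 0.44 ± 0.27 for MCM2, -0.60 ± 0.37 for CDC6 and -0.01 ± 0.40 for UHRF1, and differences within a few SEs were not detectable at this depth. The knockdown libraries of replicate 1 in this set carried a trace of the basal keratin KRT5 (5.99 to 11.49 TPM) that was listed at 0 in replicate 2. The median differences within replicate 2 alone were -1.24 and -1.57 for YAPi_TAZi against YAPi and TAZi and -1.17 and -1.48 for TEADi, and within replicate 1 they were -1.20, -1.51, -1.19 and -1.47. Leaving out libraries changed the counts more than the medians. YAPi_TAZi against YAPi gave 10, 9, 10 and 6 calls without YAPi 1, YAPi 2, YAPi_TAZi 1 and YAPi_TAZi 2, and against TAZi 14, 7, 18 and 12 without TAZi 1, TAZi 2, YAPi_TAZi 1 and YAPi_TAZi 2. TEADi against YAPi gave 3 without either YAPi library and 5 without either TEADi library, and against TAZi 7 without either TAZi library, 20 without TEADi 1 and 15 without TEADi 2, with medians between -1.56 and -1.14 over these 4 comparisons.

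In the second MDA-MB-231 set, JUNBi lowered 2 of the 44 genes (4.55%), near the 3.16% of all genes called lower, with a median of -0.02 (DESeq2). E2F1 was at 1674.8 and 2131.8 in Ctrli and 999.9 and 1035.2 in JUNBi (-0.90 ± 0.20, DESeq2 adjusted p = 0.00069), and TK1 at 4752.5 and 5279.8 against 3213.5 and 2694.4 (-0.76 ± 0.18, DESeq2 adjusted p = 0.00133). Both genes were fully separated between groups, while MCM2 (0.04), PCNA (0.01), RRM2 (0.30) and CDC6 (0.40) were not called. edgeR called 0 of all genes in this comparison, these 2 included, with 10 members at an unadjusted p under 0.05, and the count was 4 without Ctrli 3 and 0 without any of the other 3 libraries. STAT3i called 0 members by DESeq2, of the 15 with an adjusted p, and 0 by edgeR, with 4 and 7 at an unadjusted p under 0.05, a median of 0.03 and 0.497% of all genes called lower. STAT3i gave 2 calls without Ctrli 3.

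Other cell cycle genes, from lists of neighbouring functions, were examined beside the 44. Of 25 mitosis genes, YAPi lowered all 25 under TAM (median -1.0) and 20 under ETH (-0.78), TAZi lowered 7 and 17 (-0.38 and -0.55), JUNBi 6 and 9 (-0.38 and -0.88), and STAT3i 1 and 0. In the same order, the shares of all genes called lower were 5.26% and 6.47% for YAPi, 1.33% and 2.48% for TAZi, 4.06% and 1.61% for JUNBi, and 4.88% and 0.144% for STAT3i, so that the single STAT3i call is no more than the background. In YAPi under TAM the mitosis genes thus had a lower median than the 44 replication genes (-0.35), whereas in the first MDA-MB-231 set the mitosis medians, -1.29 and -1.30 for YAPi_TAZi against YAPi and TAZi, lay beside those of the replication genes (-1.23 and -1.53). Of 30 other replication genes, YAPi lowered 5 under TAM, led by TIMELESS of the fork protection complex (-1.15) and RPA1, the large subunit of the single-strand binding protein (-1.09), and raised POLE3 (0.58), against 5.26% and 5.14% of all genes called lower and higher. Under ETH it lowered 6, again led by TIMELESS (-1.58) and RPA1 (-1.46), against 6.47%. YAPi_TAZi and TEADi against TAZi lowered 13 and 12 of the 30, against 4.52% and 4.51% of all genes, led by the chromatin remodeller HELLS (-2.14 and -1.77) and the clamp loader factor DSCC1 (-2.06 and -1.84).

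Of 30 regulators of the G1/S transition, YAPi raised 5 and lowered 6 under TAM, against 5.14% and 5.26% of all genes. The genes that rose were the D cyclins CCND2 (1.51), CCND1 (1.29) and CCND3 (0.62), the CDK inhibitor CDKN1A (1.17) and E2F3 (0.77), and those of largest decrease were MYBL2 (-0.90), CCNA2 (-0.87), LIN9 (-0.82) and CDK2 (-0.77). Under ETH CCND1 (1.28), CDKN1A (1.23) and CCND2 (1.18) rose and 4 fell, against 5.11% and 6.47%. JUNBi under ETH raised CDKN1C (2.71), another CDK inhibitor, which STAT3i raised under TAM (3.29). In the first MDA-MB-231 set, CDKN1A was higher in YAPi_TAZi than in YAPi and TAZi (1.10 and 1.40) and in TEADi than in YAPi and TAZi (1.13 and 1.45). In the same order, cyclin E2 (CCNE2) was lower, with log2 differences of -2.67, -2.17, -2.69 and -2.19, as was CDC25A, the phosphatase that activates CDK2, with -1.93, -2.19, -1.89 and -2.12, all called by DESeq2. Of the 30, 6, 9, 7 and 8 were called lower, against 3.42%, 4.52%, 2.34% and 4.51% of all genes. Called higher were 1, 2, 1 and 5, against 1.41%, 2.14%, 1.57% and 3.89%. SKP2 had the lowest estimate in YAPi_TAZi against TAZi (-2.39) and CDKN1C the highest in TEADi against TAZi (2.71). In ER-Src cells under TAM, CCNE2 had the highest estimate of the 30 in TAZi (1.12) and in JUNBi (1.20).

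**Figure D5:**
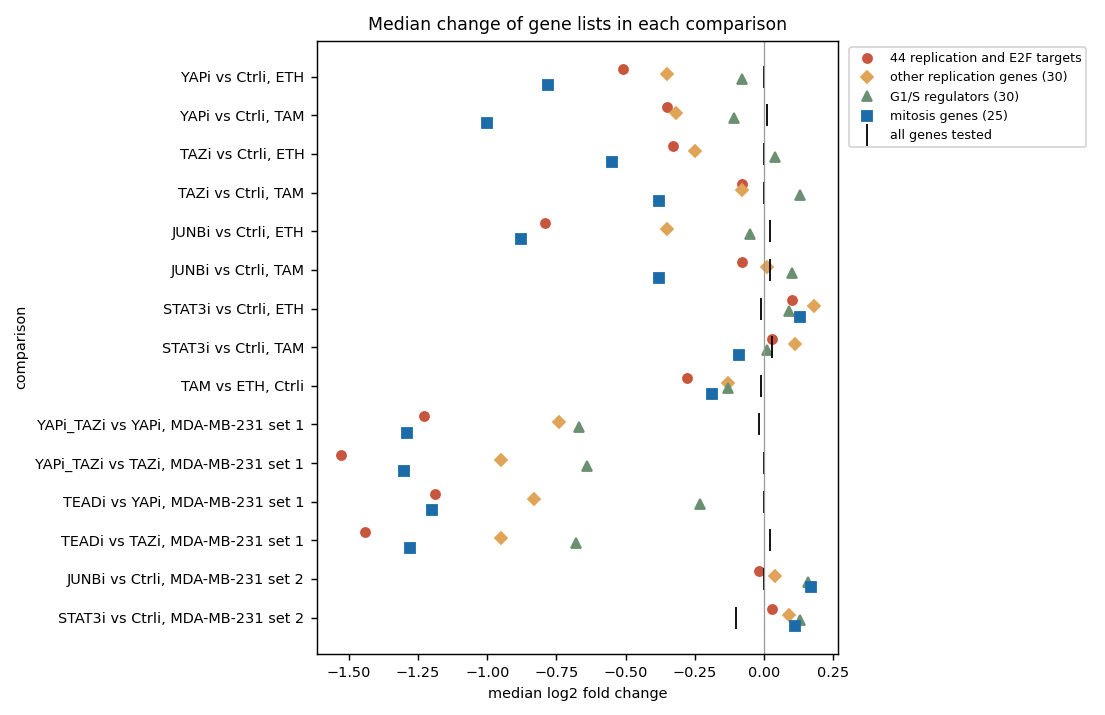
Median log2 difference (x axis) of the 44 genes, 30 other replication genes, 30 G1/S regulators and 25 mitosis genes in 15 comparisons (y axis). In YAPi under TAM the mitosis median (-1.0) lies below that of the 44 genes (-0.35), and in YAPi_TAZi against TAZi the median of the 44 genes (-1.53) lies below the others.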

How the data were processed

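RNA of ER-Src and MDA-MB-231 cells treated with siRNA was sequenced as 36 libraries, which were grouped by their titles. The study names a TruSeq ribosome profiling kit, although the share of counts in RNAs without a poly(A) tail differed between sets of libraries. The authors trimmed reads, aligned them with STAR to hg38 with GENCODE genes (up to 20 alignments per read kept) and quantified genes with RSEM; tool versions were not given in the sources used here. The deposited tables hold RSEM expected counts and TPM by the authors for each library, with gene length and effective length. Whether counting used strand is not stated, and 14 of the 44 genes overlap an exon of another protein-coding gene (MCM7 with AP4M1, TYMS with ENOSF1, FEN1 with FADS2), so their values could hold shared reads. Multi-mapped reads were shared between genes by RSEM.

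Expected counts were rounded and tested with DESeq2 1.42.0 (R 4.3.3), after the study's design: a separate fit for each pair of groups, 2 libraries a group, called at an adjusted p under 0.01 over all genes tested. Genes to which DESeq2 gave no adjusted p were left without one. Interactions with TAM were fitted on 4 groups. In 25 comparisons, the alternatives were edgeR 4.0.16 quasi-likelihood, TMM scaling, a mean count of at least 10, effective length offsets, one fit over all groups, the replicate number as a block, and each library left out. On simulated data for 200 genes changed by 1.5 on the log2 scale, 69.5% were recovered for YAPi under TAM (23019 genes), 50% for YAPi_TAZi against TAZi in MDA-MB-231 (16801 genes) and 55% for JUNBi in the second MDA-MB-231 set (19125 genes). False calls numbered 2, 6 and 5 in the same order. The largest member change against Ctrli in ER-Src cells was -1.44, so these shares do not describe the smaller changes seen there.

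Library totals ranged from 1411304 to 19161700 counts, and the shallow first MDA-MB-231 set is the least precise. TPM was used for levels between genes. Libraries of one group were not duplicates (mean chi-square per gene of 2.27 to 65.4). Same-numbered libraries of the first MDA-MB-231 set deviated together (r of 0.792 to 0.825 in 6 of 6 pairs of groups, from the numbers in the titles), and those of ER-Src did so in 34 of 45 pairs (-0.420 to 0.640) and were not taken as paired. The 44 genes and the other lists were chosen with earlier results of these data known. All 44 could be named by role; in each comparison the up to 4 called genes of largest change in each direction and 6 fixed genes (MCM2, CDC6, PCNA, RRM2, E2F1 and UHRF1) were described first, and up to 4 called genes for each other list. Other genes named within a role were chosen after their values were seen. Promoters came from RefSeq (GRCh38.p14).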

Additional observations from a re-analysis of the deposited data

Results flagged for a closer look

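KRT5, a basal keratin expressed by ER-Src cells and not by MDA-MB-231, was read in 4 libraries that no comparison of the report uses it for: it was at 5.99 TPM in YAPi, 6.37 in TAZi, 11.49 in YAPi_TAZi and 8.07 in TEADi, all replicate 1 of the first MDA-MB-231 set, and at 0 in every other MDA-MB-231 library, the controls included. ER-Src libraries held 1012 to 2622 TPM, so the levels in replicate 1 were 0.39% to 0.749% of the ER-Src median of 1534. The other basal keratins KRT6A (2.72, 1.37, 2.96 and 1.54 TPM) and KRT17 (4.61, 3.14, 6.25 and 3.33 TPM) were also present in these 4 libraries, in the same order. The medians of the 44 replication genes within replicate 2, where KRT5 was at 0, were -1.24 and -1.57 for YAPi_TAZi against YAPi and TAZi and -1.17 and -1.48 for TEADi, as large as within replicate 1.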

How the results depend on the processing

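Over the medians and call counts of the 44 genes, 404 alternative values stayed near the main value (within 1 SD of the libraries' spread for a median, within 1.5 times for a count) and 124 moved further. The causes were not tested. Outside STAT3i under TAM and STAT3i in the second MDA-MB-231 set, no member was called in the direction opposite to the main calls. The medians near 0 changed sign: STAT3i under TAM from 0.03 to as low as -0.04 (without Ctrli 1), STAT3i in the second MDA-MB-231 set from 0.03 to -0.08 (without Ctrli 4), JUNBi there from -0.02 to 0.01 (TMM) and YAPi_TAZi against TEADi from -0.06 to 0.02 (without YAPi_TAZi 2). With edgeR the count of called members was 0 for TAZi under TAM, STAT3i under TAM, JUNBi under ETH, JUNBi in the second MDA-MB-231 set and STAT3i against JUNBi under ETH, 1 for TAZi under ETH, TAM against ETH and YAPi against TAZi under TAM and under ETH, and 22 for TEADi against YAPi. With TMM scaling the JUNBi median under TAM was -0.04 and STAT3i against JUNBi under ETH gave 6. A mean count of at least 10 gave 2 for TAZi under TAM, 1 for TAM against ETH, 6 for YAPi against TAZi under TAM, 6 for STAT3i against JUNBi under ETH and a median of -1.49 for YAPi_TAZi against TAZi. Effective length offsets gave 5 for TAM against ETH, 1 for the JUNBi by TAM interaction, 1 and 0 for STAT3i against JUNBi under TAM and ETH, a median of -1.44 and 18 calls for YAPi_TAZi against TAZi, a median of -1.30 and 16 calls for TEADi against TAZi, and a median of -0.05 for STAT3i in the second set. One fit over all groups gave 0 and 3 for TAZi under TAM and ETH, 33 for JUNBi under ETH, 4 for TAM against ETH, 7 for the JUNBi interaction, 6 for YAPi against TAZi under TAM, 34 for STAT3i against JUNBi under ETH, 26 for both YAPi_TAZi and TEADi against YAPi, and 4 for JUNBi in the second set.

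With the replicate block the counts were 4 for YAPi under TAM, 0 for TAZi and for STAT3i under TAM, 3 for TAZi under ETH, 15 for JUNBi under ETH, 1 for TAM against ETH, 4 for the JUNBi interaction, 26 for STAT3i against JUNBi under ETH and 1 for YAPi against TAZi in the first MDA-MB-231 set. The ER-Src numbers were not taken as pairs, although same-numbered libraries correlated in STAT3i against JUNBi under ETH (r of 0.640). In the first MDA-MB-231 set, where they were, the block gave 20 and 26 calls for YAPi_TAZi against YAPi and TAZi and 20 and 27 for TEADi. No paired analysis was possible because Ctrli shares no replicate number with STAT3i or JUNBi in the second set.

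Leaving out 1 library gave call counts of 1 to 6 for YAPi under TAM, 4 to 16 for YAPi under ETH, 0 to 0 for TAZi under TAM, 0 to 2 for TAZi under ETH, 0 to 1 for STAT3i under TAM, 0 to 2 for JUNBi under TAM, 0 to 19 for JUNBi under ETH, 0 to 0 for TAM against ETH, 0 to 9 for the JUNBi interaction, 0 to 2 and 0 to 0 for YAPi against TAZi under TAM and ETH, and 0 to 4 for STAT3i against JUNBi under ETH. In MDA-MB-231 it gave 6 to 10 and 7 to 18 for YAPi_TAZi against YAPi and TAZi, 3 to 5 and 7 to 20 for TEADi against YAPi and TAZi, 0 to 4 for JUNBi and 0 to 2 for STAT3i. Medians ranged over -0.04 to 0.08 for STAT3i and -0.13 to -0.06 for JUNBi under TAM, -0.83 to -0.70 for JUNBi under ETH, -0.17 to -0.02 and 0.54 to 0.69 for the STAT3i and JUNBi interactions, 0.11 to 0.14 for STAT3i against JUNBi under TAM, -0.27 to -0.22 for YAPi against TAZi, -1.35 to -1.15 and -1.56 to -1.48 for YAPi_TAZi against YAPi and TAZi, -1.48 to -1.42 for TEADi against TAZi, -0.05 to 0.02 for YAPi_TAZi against TEADi, and -0.08 to 0.02 for STAT3i in the second set. With 1 library left in a group, that library is assumed to vary like the other group. Medians were thus steadier than call counts, and 2 libraries a group limit the calls, as does the depth of the first MDA-MB-231 set.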

Other observations

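CDC6 was called in comparisons within the first MDA-MB-231 set and in no knockdown comparison with Ctrli in either line. In the second MDA-MB-231 set it was at 0.40 in JUNBi and 0.50 in STAT3i against Ctrli and was not called. In ER-Src cells YAPi left CDC6 uncalled under both treatments (0.17 ± 0.18 under TAM and -0.23 under ETH), while TYMS was the lowest member in both (-1.23 and -1.44). In the first MDA-MB-231 set CDC6 was called in all 4 comparisons of YAPi_TAZi or TEADi with YAPi or TAZi (-1.80, -2.35, -1.21 and -1.73). The comparators differ, a control siRNA in ER-Src cells and a single knockdown in the first MDA-MB-231 set, and the difference between lines was not tested. CDKN2A and CDKN2B were listed at 0 in every library.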
